A study of Mus musculus with 4 samples.

Results

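The genes of the cytosolic ribosomal proteins were examined in RNA from mouse joint cartilage after knee surgery. They were taken by name from the estimated count table: every row named as a protein of the small subunit (Rps), of the large subunit (Rpl) or of the stalk (Rplp0, Rplp1, Rplp2), with Rpsa, and without pseudogene rows and the Rps6 kinases. Of 84 such rows, 81 had at least 100 counts summed over the libraries, out of 24421 rows in all. They comprised 33 genes of the small subunit and 48 of the large subunit, and 4 of them are rows of paralogs (Rps4l, Rps27l, Rpl7l1 and Rpl22l1). The genes were selected on their names and on these summed counts, so their being well expressed is a description and not a result. Just inside the limit stood Rps4l with 455 counts, followed by Rpl22l1 with 3224 counts. Just outside it stood Rpl3l with 70.5 counts and Rpl39l with 63 counts, and Rpl10l had 0 counts in every library. Rpl3l, a paralog of Rpl3 expressed in striated muscle, had 32 and 2.5 counts in the DMM knees of M04 and M05, against 5 and 31 counts in the sham knees.

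The libraries came from superficial-zone cartilage of the femoral condyle of C57BL/6J mice, taken 8 weeks after surgery. In each of 2 animals, M04 and M05, 1 knee had DMM (surgical destabilisation of the medial meniscus, a model of osteoarthritis) and the other knee had sham surgery, so there was 1 library for each knee and 4 libraries in all. The sample labels give both animals as wild type, whereas the design text of the series calls M05 a knockout and names no gene. M05 against M04 is therefore reported as a comparison of 2 animals and of nothing else. The free-text descriptions of the sham samples mention a DMM-operated knee, and their titles and treatment field were followed.

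A ribosome joins a small subunit, which reads the messenger RNA, to a large subunit, which forms the peptide bond, and ribosomal proteins decorate and fold the RNA core of both. Cells make these proteins in matched amounts, and their messenger RNAs share a run of pyrimidines at the capped end, the terminal oligopyrimidine tract, through which mTOR and Larp1 set their translation. Growing cells, and precursors of blood cells in marrow, hold much of this RNA. In cartilage, chondrocytes secrete matrix and carry ribosomes for it.

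Promoter sequence is shown for 8 genes, to let the start of the members with opposite ratios of DMM to sham be set side by side. These are the 4 lowest and the 4 highest by the ratio in M05 among the members with 1 start in the RefSeq promoter table (GRCm38.p6), leaving out those on a chromosome not printed here. Each line runs 5′ to 3′ on the gene's strand from 50 bases before to 30 bases after the RefSeq start. Within these bases, capitals mark the longest run of C and T that begins with C. In Rps7 and Rpl41 they mark the first of 2 such runs of equal length. The lower 4 are Rpl22l1 (chr3:28805458-28805537, plus strand), Rps23 (chr13:90923072-90923151, plus strand), Rps7 (chr12:28635924-28636003, minus strand) and Rpl41 (chr10:128549139-128549218, minus strand).
Rpl22l1: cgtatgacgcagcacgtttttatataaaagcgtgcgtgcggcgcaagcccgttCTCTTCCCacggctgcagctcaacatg
Rps23: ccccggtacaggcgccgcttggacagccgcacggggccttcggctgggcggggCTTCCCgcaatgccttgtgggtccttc
Rps7: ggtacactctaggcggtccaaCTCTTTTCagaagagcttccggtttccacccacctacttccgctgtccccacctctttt
Rpl41: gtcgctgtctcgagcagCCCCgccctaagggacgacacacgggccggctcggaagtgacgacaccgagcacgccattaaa
The higher 4 are Rpl38 (chr11:114668530-114668609, plus strand), Rpl10 (chrX:74270766-74270845, plus strand), Rps26 (chr10:128626477-128626556, minus strand) and Rpl28 (chr7:4792915-4792994, plus strand).
Rpl38: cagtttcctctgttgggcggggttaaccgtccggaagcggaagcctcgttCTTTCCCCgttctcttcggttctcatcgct
Rpl10: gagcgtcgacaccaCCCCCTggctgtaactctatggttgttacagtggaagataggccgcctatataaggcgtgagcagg
Rps26: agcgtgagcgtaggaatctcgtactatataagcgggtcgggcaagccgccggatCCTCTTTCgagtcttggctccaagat
Rpl28: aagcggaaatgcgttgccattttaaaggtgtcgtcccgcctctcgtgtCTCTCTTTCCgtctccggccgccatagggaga
The run was 8, 6, 8 and 4 bases long in Rpl22l1, Rps23, Rps7 and Rpl41, and 8, 6, 8 and 10 bases long in Rpl38, Rpl10, Rps26 and Rpl28. Counted from the start as base 1, the marked run began at base 4 in Rpl22l1 and Rps23, and at bases 1 and 5 in Rpl38 and Rps26. It spanned the start in Rpl28, from base -2 to base 8. In Rps7, Rpl41 and Rpl10 the marked run began at bases -29, -33 and -36, ahead of the start and so outside the transcript as RefSeq gives it. The second run of equal length in Rps7 lies after the start. It reaches the end of the printed bases, so its full length is not shown.

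The pyrimidine run was searched in the same way over the wider set. Of the members, 60 were in the RefSeq table, and 50 of them (83.3%) held a run of at least 8 bases that began with C between 50 bases before and 50 bases after a start, against 32.0% of the 27025 genes in the table. It was held by 18 of 24 small subunit genes and 32 of 36 large subunit genes. Searched on both strands from 250 bases before to 50 bases after the start, CCGGAAG, a core bound by ETS-type factors, was found in 41.7% of the members and 9.93% of all genes in the table. The sequence ATGGCGG, the core of YY1 sites, was found in 18.3% of the members and 4.69% of all genes, and TCTCGCG in 23.3% of the members and 2.92% of all genes. The sequence TATAAA was found in 11.7% of the members and 15.7% of all genes. These matches describe letters in a window and are not evidence of binding. In the GENCODE annotation of GRCm38, 80 of the 81 members had a coding sequence, on 19 chromosomes, with 14 members on chromosome 7 and 4 on the X chromosome.

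The members made up a large share of every library, and the DMM and sham knees overlapped in it. They took 8.54% of the counts in the DMM knee of M04 and 9.05% in that of M05, against 7.58% in the sham knee of M04 and 9.11% in that of M05. The 95% Wilson intervals, which cover counting error only, were 8.53% to 8.56% and 9.03% to 9.06% in the DMM knees, and 7.57% to 7.60% and 9.09% to 9.12% in the sham knees. Among the 100 rows with the most counts, 43 were members. The DMM knee was above the sham knee in M04 and slightly below it in M05.

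The library totals were 12712425 to 19336628 counts, and the sham knee of M05 was the deepest. Rows of haemoglobin, the oxygen carrier of red cells, held 25.8% and 29.4% of the counts in the DMM knees of M04 and M05, against 30.3% and 35.3% in the sham knees. With those rows left out, the members held 11.5% and 12.8% of the remaining counts in the DMM knees of M04 and M05, and 10.9% and 14.1% in the sham knees. Cartilage markers (9 of 9 found, among them Col2a1, Acan and Prg4, none at 0) held 0.628% and 0.398% in the DMM knees of M04 and M05, against 0.4998% and 0.107% in the sham knees. The cartilage markers were thus present but low beside the blood genes, and lowest in the sham knee of M05. In bulk RNA, fewer cells of a type and less RNA per cell cannot be told apart.

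**Figure D1:**
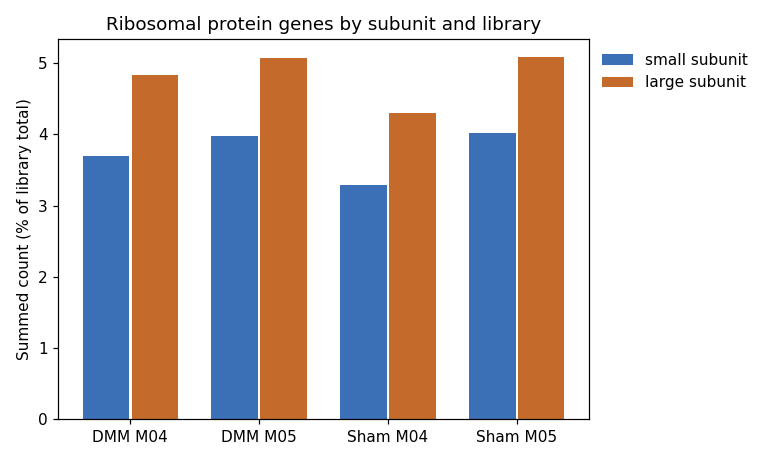
Summed counts of the 33 small subunit genes (blue) and the 48 large subunit genes (orange) as a percentage of the library total, for the DMM and sham knees of M04 and M05. Small subunit genes range from 3.29% to 4.02% and large subunit genes from 4.30% to 5.09%, and both are lowest in the sham knee of M04.

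The subunits moved together from library to library. Small subunit genes held 3.70% and 3.97% of the counts in the DMM knees of M04 and M05, against 3.29% and 4.02% in the sham knees. Large subunit genes held 4.84% and 5.08% in the DMM knees of M04 and M05, against 4.30% and 5.09% in the sham knees. The ratio of small to large subunit counts was 0.766 and 0.782 in the DMM knees of M04 and M05, and 0.764 and 0.790 in the sham knees. On the FPKM scale, which divides by transcript length, the same ratio was 0.911 and 0.925 in the DMM knees of M04 and M05, against 0.909 and 0.927 in the sham knees. Both ratios were higher in the libraries of M05 than in those of M04, and the DMM and sham knees overlapped.

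Single members spanned a wide range of levels per length. The mean FPKM over the 4 libraries ran from 10.95 for Rps4l to 8110 for Rpl41, with a median of 2171. Rpl41, the smallest of the ribosomal proteins, had 6606 and 8445 FPKM in the DMM knees of M04 and M05, against 6661 and 10729 FPKM in the sham knees. Next in order of mean FPKM were Rps29 with 6804, Rps27 with 6543, Rps12 with 5115 and Rplp1 with 5050. The ranges over the libraries of these 5 genes overlapped from each to the next. Within every library Rpl41 was above Rps29, and Rps27 was above Rps12. The order of Rps29 and Rps27, and that of Rps12 and Rplp1, changed from library to library. At the low end, above Rps4l, came Rpl7l1 with a mean of 27.1 FPKM, Rpl30 with 57.6, Rps15a with 148 and Rpl22l1 with 180. For Rpl30 and Rps15a the counts and FPKM values together imply transcript lengths of 3939 and 4977 bases, against a median of 524 bases over the members, so their FPKM values are low for their counts. For Rps27 the implied length is 75.3 bases, below the 252 bases of its coding sequence, so its FPKM values are high for its counts.

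Some members share reads with another row. Rpl26 had the same counts as the row Gm15772 in every library. Within 2% in every library, the counts of Rpl30 equalled those of Gm12191, those of Rpl34 equalled those of Rpl34-ps1, and those of Rps27 equalled those of Rps27rt. The levels of these 4 genes are uncertain for that reason. Of the 81 members, 52 had counts that were not whole numbers.

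The first comparison asked whether the members changed 8 weeks after DMM. In edgeR's quasi-likelihood test with the mouse as a block and Benjamini-Hochberg adjustment over 13103 genes, 0 of the 81 members passed an adjusted p of 0.05 in either direction. In the same test 0.633% of all genes were higher in DMM and 0.0153% were lower. Without adjustment, 0 members had a p under 0.05, against 5.2% of all genes, and DESeq2 called 0 members. The median log2 fold change of DMM over sham was -0.04 for small subunit genes and -0.04 for large subunit genes, against -0.01 for all genes tested. The standard errors of the members were 0.152 to 0.307 on the log2 scale, with a median of 0.168. A change of that size, or somewhat above it, was not detectable here. Even the highest fold change of a member, 0.27 for Rpl38, had an unadjusted p of 0.0872 in edgeR's quasi-likelihood test. For M05 against M04, where the median standard error was also 0.168, the lowest fold change of a member that passed was 0.54 (Rpl30). No member had both DMM libraries above both sham libraries, against 13.2% of all genes, and 1 member, Rpl7l1, had both below both, against 12.3% of all genes.

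The members with the highest fold changes had overlapping groups. Rpl38, a large subunit protein needed in mice for the patterning of the skeleton, had 450 and 667 CPM (counts scaled for library size by TMM) in the DMM knees of M04 and M05, against 405 and 510 CPM in the sham knees. Its log2 fold change was 0.27 ± 0.16 (SE), with an unadjusted p of 0.0872 and an adjusted p of 0.9997 in edgeR's quasi-likelihood test. The DMM knee was above the sham knee in each mouse, and the DMM knee of M04 was below the sham knee of M05. Among the next were Rps4l, a row that resembles Rps4x, with a log2 fold change of 0.18, Rpl10, which lies near the peptidyl transferase centre, with 0.16, and Rps4x, encoded on the X chromosome, with 0.13.

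The members with the lowest fold changes were led by Rpl22l1, the paralog of the RNA-binding large subunit protein Rpl22. Rpl22l1 had 43.6 and 50.7 CPM in the DMM knees of M04 and M05, against 33.3 and 88.3 CPM in the sham knees. Both DMM libraries lay between the sham libraries. Its log2 fold change was -0.22, followed by Rps23, which lines the decoding site, with -0.20, Rpl41 with -0.19, the stalk gene Rplp1 with -0.18 and Rps24 with -0.15. Rps23 had 963 and 1184 CPM in the DMM knees of M04 and M05, against 907 and 1664 CPM in the sham knees. With 3 libraries and the mouse term dropped as well, since the full model then leaves no residual degree of freedom, Rpl22l1 had a log2 fold change of -0.90 without the sham knee of M04, with an adjusted p of 0.0132 in edgeR's quasi-likelihood test, and of 0.50 without the sham knee of M05. Both choices changed at once in these fits, and the ratios within each mouse are given with the next results.

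On the TMM scale, the animals differed in the direction of the median ratio of DMM to sham. In M05 the median log2 ratio was -0.17 for small subunit genes and -0.16 for large subunit genes, and in M04 it was 0.06 for small subunit genes and 0.07 for large subunit genes. Of the 81 members, 29 lay above 0 in M05, against 48.6% of all genes, and 66 lay above 0 in M04, against 50.8% of all genes. Below 0 in M05 and above 0 in M04 were 47 members (58.0%), against 27.6% of all genes, and 10 members (12.3%) showed the opposite, against 25.4% of all genes. The remaining members were above 0 in both animals (19) or below 0 in both (5). Whether the animals differ was not tested, since each ratio rests on 1 library of each kind. The ratios were not computed with library totals as the scale. On that scale the members' share in M05 was close, with 9.05% in the DMM knee against 9.11% in the sham knee.

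**Figure D2:**
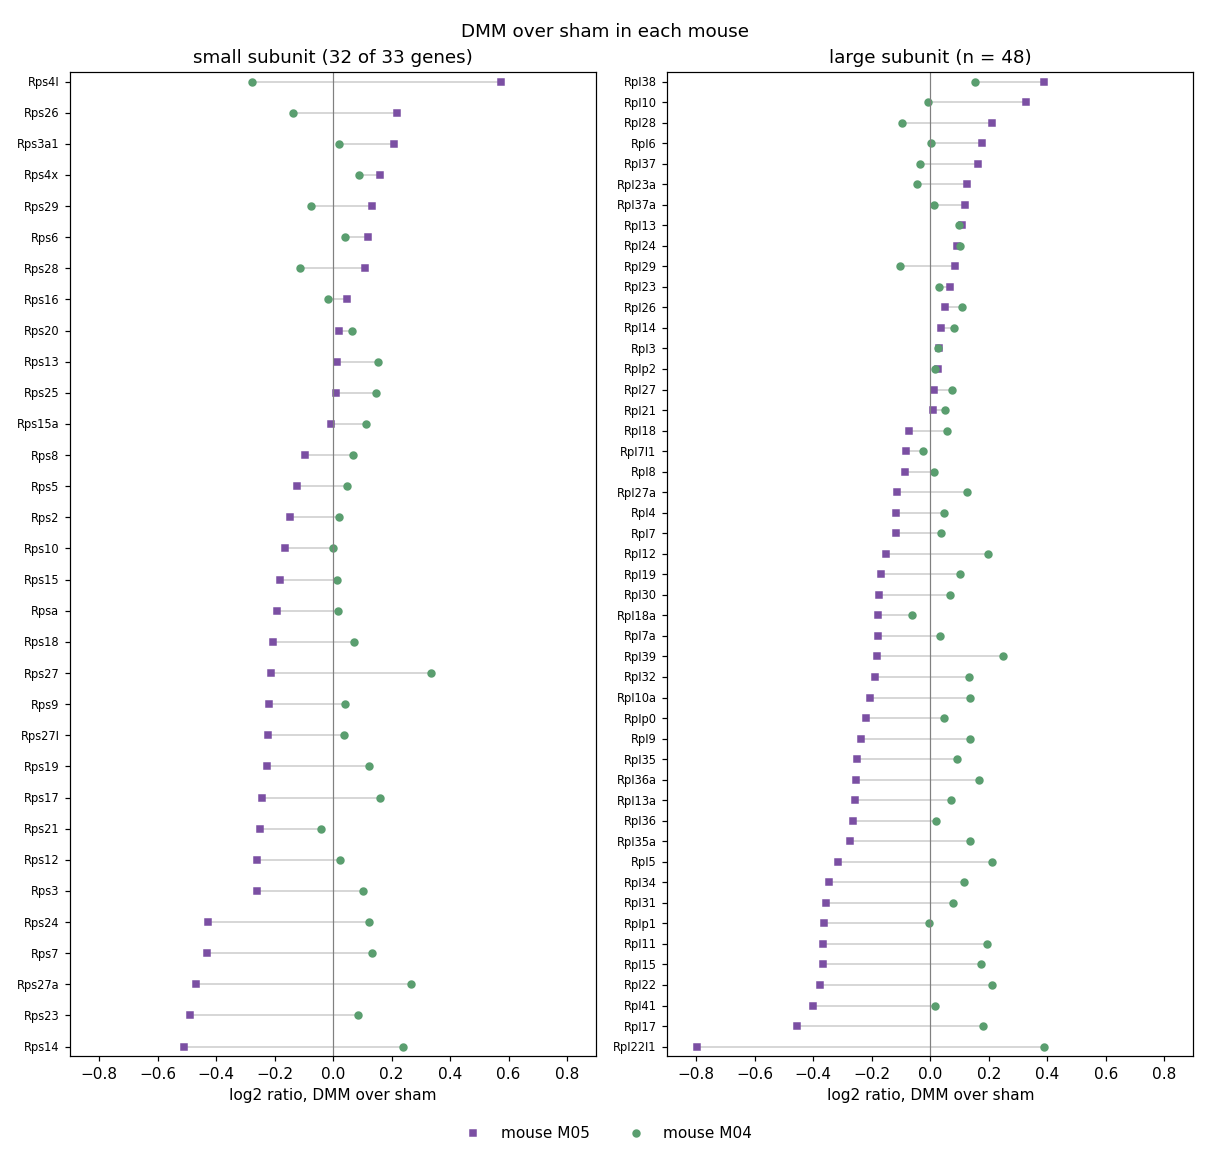
The log2 ratio of DMM over sham from TMM-normalised CPM for each small subunit gene (left) and large subunit gene (right), in M05 (purple squares) and M04 (green circles), ordered by M05, with 1 small subunit gene not drawn. Grey lines join the values of a gene, and most squares lie left of 0 (median -0.17 for all 81 members) while most circles lie right of it (median 0.07).

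The members spread more widely in M05 than in M04. The standard deviation of the log2 ratio over the members was 0.230 in M05 and 0.103 in M04, against 0.573 and 0.484 over all genes tested, so all genes spread more widely in M05 too and the members less than all genes. The counting error of 1 ratio had a median of 0.017 and reached 0.237 for the gene with the fewest counts. Over the 81 members the ratios of M05 and M04, which share no library, had a Spearman correlation of -0.52 and a Pearson correlation of -0.60, against -0.03 and -0.04 over all genes tested. Genes within 1 library are not independent, so this is a description only.

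Several genes stood at opposite ends in the 2 animals. Rpl22l1 had a log2 ratio of -0.80 in M05 and 0.39 in M04, the lowest and the highest value of all members. Rps14, a small subunit protein linked in humans to an anaemia, had -0.51 in M05 and 0.24 in M04. Rps27a, made as a fusion to ubiquitin, had -0.47 in M05 and 0.27 in M04. Rpl17, a large subunit protein, had -0.46 in M05 and 0.18 in M04. These genes were below 0 in M05 and above 0 in M04. Rps4l stood at the other end with 0.57 in M05 and -0.28 in M04, on few counts. Rpl38 was the exception among the extremes, with 0.39 in M05 and 0.15 in M04. Beside it, Rpl10 had 0.33 in M05 and -0.01 in M04, Rps26 had 0.22 and -0.14 and Rpl28 had 0.21 and -0.10 in the same order.

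Of the cell markers, those of muscle and of endothelium also had median ratios of opposite signs in the animals, on the same sides as the members. The 4 endothelium markers had a median log2 ratio of DMM to sham of -0.18 in M05 and 0.02 in M04. Their summed share of library totals was higher in the DMM knee in both animals. It was 0.00833% against 0.00685% in the sham knee in M05, and 0.0123% against 0.0115% in M04. Scaled by TMM, as the ratios are, their sum was 87.0 against 77.7 CPM in M05 and 109.3 against 109.7 CPM in M04. The markers of skeletal muscle (7 of 7 found, none at 0) had a median log2 ratio of DMM to sham of -1.89 in M05 and 1.59 in M04, and their summed counts were 5711 and 1905 in the DMM knees of M04 and M05, against 1933 and 8611 in the sham knees. The neutrophil markers had a median ratio of 0.18 in M05 and -0.09 in M04, opposite in sign to the members, but they were split. S100a8, S100a9 and Camp had -0.59, -0.58 and -0.25 in M05 and 0.01, 0.19 and 0.03 in M04, on the members' sides. Ngp, Ltf, Elane, Mpo and Lcn2 had the opposite signs in both animals. The summed share of all 8 was 5.70% in the DMM knee of M05 against 5.99% in the sham knee. In M04 it was 4.64% against 4.33%, so this share of library totals lay on the members' sides. Scaled by TMM, as the ratios are, the sum was 59469 CPM in the DMM knee of M05 against 67894 CPM in the sham knee. In M04 it was 41175 CPM against 41427 CPM, so on this scale the DMM knee was below the sham knee in both animals. The cartilage markers were above 0 in both, with 1.58 in M05 and 0.29 in M04. The erythroid markers, with -0.29 in M05 and -0.32 in M04, and the proliferation markers, with -0.01 in M05 and -0.16 in M04, were below 0 in both. The part of muscle, endothelium, cartilage and blood RNA in the members' ratios was not tested. Over the 80 members with a coding sequence, the ratio had a Spearman correlation with its GC content of 0.13 in M05 and -0.50 in M04, against 0.23 and -0.06 over 12208 genes.

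The second comparison set M05 against M04, with the surgery as a term in the model. All 81 members had a positive fold change, against 49.1% of all genes tested, and in 80 of them both libraries of M05 lay above both libraries of M04, against 22.5% of all genes. The exception was Rpl7l1, with 63.6 and 67.4 CPM in the DMM and sham knees of M05, against 63.5 and 64.6 CPM in those of M04. The median log2 fold change was 0.44 for small subunit genes and 0.40 for large subunit genes, against -0.01 for all genes. Within DMM knees the medians were 0.34 for small and 0.30 for large subunit genes, and within sham knees they were 0.57 and 0.51 in the same order. The members' shared direction held in each kind of knee, with all 81 higher in M05 in DMM knees (47.8% of all genes), in sham knees (50.1%) and in both (28.2%).

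By edgeR's quasi-likelihood test with Benjamini-Hochberg adjustment, 13 of the 81 members were higher in M05, 6 of 33 in the small subunit and 7 of 48 in the large subunit, and 0 were lower. In the same test 0.962% of all genes were higher in M05 and 1.64% were lower. No member had both libraries of M05 below both of M04, against 22.8% of all genes. Without adjustment 66 members had a p under 0.05, against 14.3% of all genes. The test compares 2 animals by the spread of 1 residual degree of freedom, and for 67 members that spread was taken wholly from the trend across genes. The count of called members was 25 in DESeq2, 4 with relative log expression scaling in place of TMM, and 0 with library totals as the scale, with haemoglobin rows left out, without the surgery in the model, or on FPKM. Leaving out each library in turn, with the surgery term dropped as well, gave 36 without the DMM knee of M05 and 0 without each of the other 3.

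**Figure D3:**
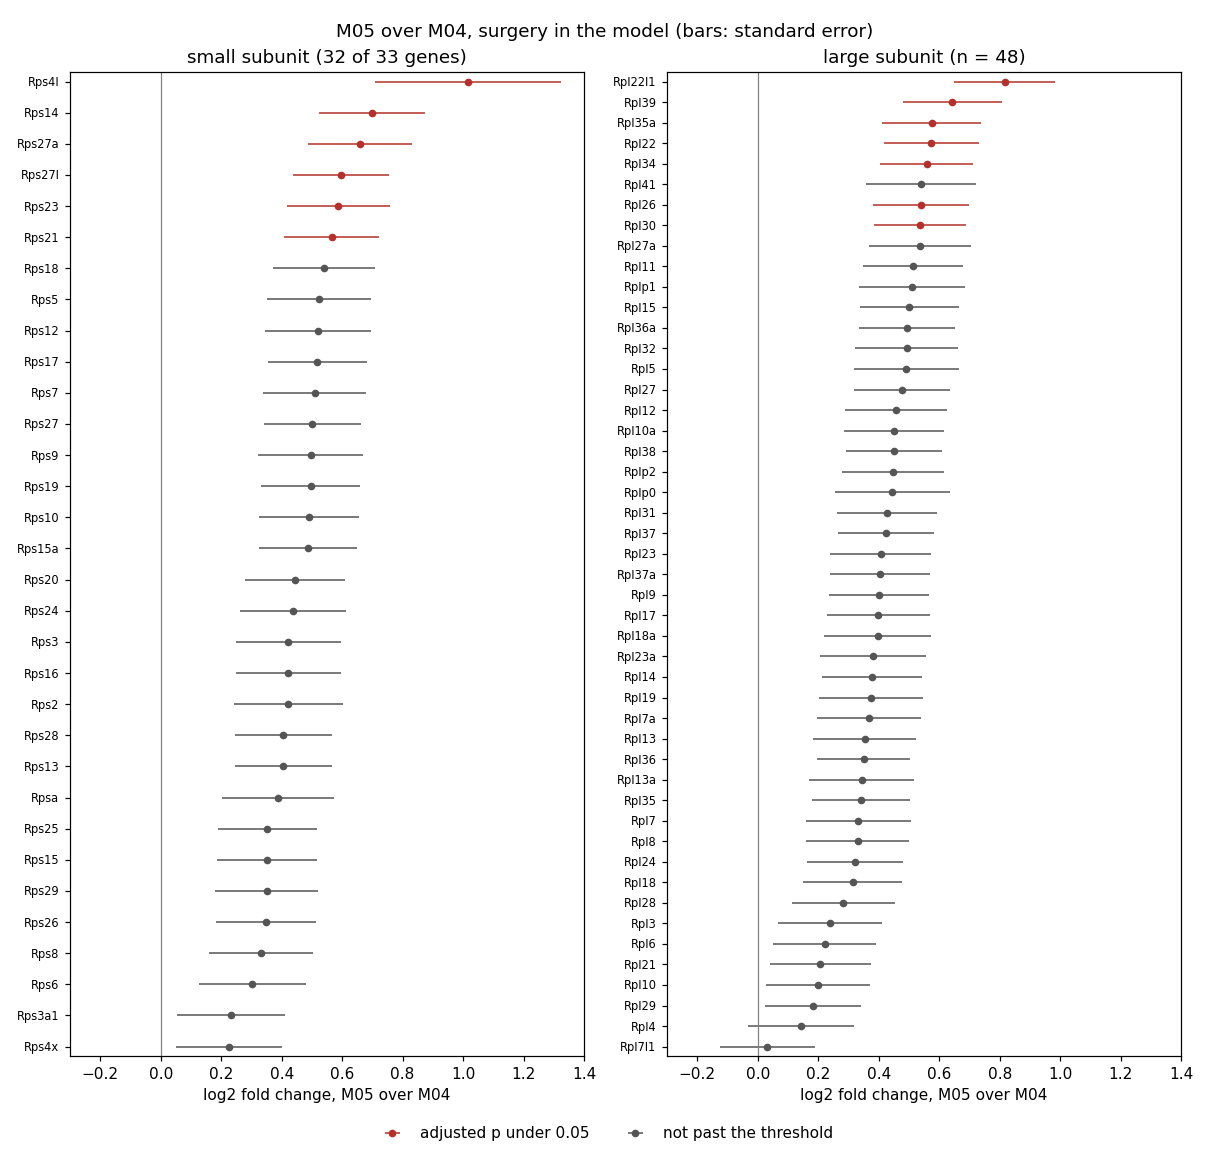
Log2 fold change of M05 over M04 with its standard error for each small subunit gene (left) and large subunit gene (right), from edgeR's quasi-likelihood model with surgery as a term, with 1 small subunit gene not drawn. Red marks the 13 members with an adjusted p under 0.05, and every point lies above 0, from 0.03 for Rpl7l1 to 1.02 for Rps4l.

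Of the called small subunit genes, Rps4l had the highest fold change, with 13.0 and 8.68 CPM in the DMM and sham knees of M05, against 4.75 and 5.78 CPM in those of M04. Its log2 fold change was 1.02 ± 0.31 (SE), with an adjusted p of 0.0417 in edgeR's quasi-likelihood test. The gene it resembles, Rps4x, had 1818 and 1625 CPM in the DMM and sham knees of M05, against 1516 and 1426 CPM in those of M04, a log2 fold change of 0.23 that did not pass. Rps14 had 1553 and 2212 CPM in the DMM and sham knees of M05, against 1239 and 1051 CPM in those of M04. Its log2 fold change was 0.70 with an adjusted p of 0.00713 in edgeR's quasi-likelihood test, and the sham knee of M05 stood highest.

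Rps27a, with 1282 and 1773 CPM in the DMM and sham knees of M05 against 1048 and 872 CPM in those of M04, had a log2 fold change of 0.66. Rps23 had a log2 fold change of 0.59 and Rps21, the lowest of the called small subunit genes, 0.56. The paralog Rps27l had 72.3 and 84.4 CPM in the DMM and sham knees of M05, against 52.4 and 51.0 CPM in those of M04. The fold change of Rps27l was 0.60 on the log2 scale and passed, while that of Rps27, which it resembles, was 0.50 and did not, with an adjusted p of 0.0582 in edgeR's quasi-likelihood test. The difference between Rps27l and Rps27 was not tested.

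Of the called large subunit genes, Rpl22l1 had 50.7 and 88.3 CPM in the DMM and sham knees of M05, against 43.6 and 33.3 CPM in those of M04. Its log2 fold change was 0.82 ± 0.17 (SE), with an adjusted p of 0.000365 in edgeR's quasi-likelihood test, the lowest among the members. Rpl22 had 416 and 540 CPM in the DMM and sham knees of M05, against 343 and 296 CPM in those of M04, with a log2 fold change of 0.57 that passed as well. In mice Rpl22 is known to lower the expression of Rpl22l1, and here both rows were higher in M05. Rpl39, a small protein at the peptide exit tunnel, had 849 and 962 CPM in the DMM and sham knees of M05, against 630 and 531 CPM in those of M04. It was higher by 0.64 on the log2 scale, with an adjusted p of 0.00781 in edgeR's quasi-likelihood test.

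The other called large subunit genes were Rpl35a with a log2 fold change of 0.57, Rpl34 with 0.56, Rpl26 with 0.54 and Rpl30 with 0.54. Rpl26, Rpl30 and Rpl34 are 3 of the genes whose reads are shared with another row. The lowest fold changes over all members were those of Rpl7l1 with 0.03, Rpl4 with 0.14, Rpl29 with 0.18, Rpl10 with 0.20 and Rpl21 with 0.21, all in the large subunit, and with library totals as the scale these 5 became negative. With that scale the median of all genes moved to -0.25, and the medians of the members relative to it were 0.45 for small and 0.41 for large subunit genes.

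**Figure D4:**
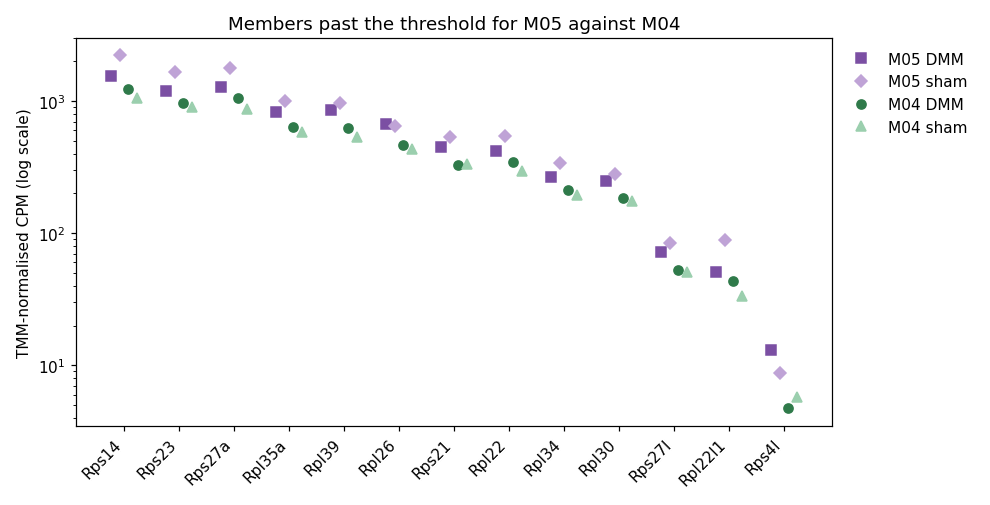
TMM-normalised CPM on a log axis for the 13 members past the threshold, in the DMM (squares) and sham (diamonds) knees of M05 and in the DMM (circles) and sham (triangles) knees of M04. In every gene both values of M05 lie above both values of M04, and the values run from 2212 CPM (Rps14, sham knee of M05) down to 4.75 CPM (Rps4l, DMM knee of M04).

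The stalk genes, whose proteins recruit the translation factors that use GTP, did not pass in either comparison. Rplp0 had 3426 and 3986 CPM in the DMM and sham knees of M05, against 2761 and 2670 CPM in those of M04. Rplp1 had 1652 and 2124 CPM in the DMM and sham knees of M05, against 1314 and 1319 CPM in those of M04, and Rplp2 had 1207 and 1186 CPM in M05 against 883 and 873 CPM in M04, in the same order. All 3 stood higher in M05. Of 5 genes that are mutated in human Diamond-Blackfan anaemia, Rpl35a passed for M05 against M04, and Rps19, Rps26, Rpl5 and Rpl11 had adjusted p-values of 0.0777, 0.296, 0.102 and 0.0669 in edgeR's quasi-likelihood test.

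Coding length moved with the difference between the animals. The Spearman correlation of the log2 fold change of M05 over M04 with coding length was -0.48 over 80 members and -0.42 over 12208 genes, and the median coding length was 454.5 bases over those members, against 1369.5 bases over all genes. Correlations with the GC content of the coding sequence were -0.21 and -0.05 in the same order. Genes are not independent replicates, and the part of transcript length in the result was not tested.

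Markers of some other cells also differed between the animals. Those of B lineage, macrophages and osteoblasts had median log2 fold changes of -0.07 each for M05 over M04, with 0 called. Neutrophil markers (8 of 8 found, none at 0) held 5.70% and 5.99% of the counts in the DMM and sham knees of M05, against 4.64% and 4.33% in those of M04, and 2 of them were called higher in M05. Erythroid markers (8 of 9 found, none at 0) held 24.96% and 28.2% in the DMM and sham knees of M05, against 21.1% and 25.7% in those of M04. The animals thus overlapped in this share, and 0 erythroid markers were called. Of the 9 cartilage markers 7 were called lower in M05. The proliferation markers held 0.136% and 0.122% in the DMM and sham knees of M05, against 0.174% and 0.191% in those of M04. The part of these cells in the members' difference was not tested.

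Other genes of the translation machinery were examined by function. Among the ribosomal protein genes that the name rule misses, Fau, made as a fusion to a ubiquitin-like protein, and Rpl36al had log2 fold changes of 0.49 and 0.47 for M05 over M04, and neither passed. Fau had 1169 and 1329 CPM in the DMM and sham knees of M05, against 900 and 874 CPM in those of M04. Of 21 translation factors and other genes with a terminal oligopyrimidine tract, 1 was called higher in M05 and 0 lower, with a median of 0.18. The called gene was Eef1b2, which reloads the elongation factor with GTP, with 798 and 905 CPM in the DMM and sham knees of M05, against 588 and 531 CPM in those of M04. Eef1a1, the elongation factor itself, had a log2 fold change of 0.17, Eef2 0.07, Tpt1 0.46 and Gnb2l1, the row of the ribosomal scaffold Rack1, 0.42, and none of these passed.

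Genes that build or regulate ribosomes had medians close to or below that of all genes. The 28 genes of ribosome assembly and ribosomal RNA synthesis had a median log2 fold change of 0.01 for M05 over M04, with 0 called in either direction. The 13 tested regulators of ribosomal protein synthesis had a median of -0.20, with 0 called. Among them Myc, which drives ribosomal genes, had 22.7 and 23.2 CPM in the DMM and sham knees of M05, against 30.6 and 37.5 CPM in those of M04, and Larp1 had 47.9 and 48.5 CPM against 60.4 and 68.7 CPM in the same order. Both stood lower in both libraries of M05, without passing the test. For DMM against sham, 0 genes of all these lists were called, and the list medians of translation factors, assembly and regulators lay between -0.05 and -0.002.

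The ribosomal proteins of mitochondria, which are encoded by other genes and serve another ribosome, gave a further set for comparison. Of 77 such genes, 3 were called higher in M05 and 0 lower, and their median log2 fold change was 0.27. The called genes were Mrps16 with 0.72, Mrpl20 with 0.66 and Mrps18c with 0.62. For DMM against sham 0 were called, with a median of 0.03. In the ratio of DMM to sham these genes had medians of 0.03 in M05 and 0.11 in M04, so they did not show the opposite signs of the cytosolic members. The translation factors and other genes with a terminal oligopyrimidine tract had -0.05 in M05 and 0.05 in M04, on the members' sides. Assembly genes, with 0.09 in M05 and -0.09 in M04, and regulators, with 0.02 and -0.04, lay on the other sides.

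Pseudogene rows summed to 4031 and 4255 counts in the DMM knees of M04 and M05, against 3517 and 7001 counts in the sham knees. Most of these lay in Rpl34-ps1, with 3150 and 3215.5 counts in the DMM knees and 2618 and 5724 counts in the sham knees, in the same order. The small nucleolar RNAs that lie in the introns of ribosomal protein genes held few counts. Of 7 pseudogene rows, 1 was called higher in M05, Rpl34-ps1, the row whose counts equal those of Rpl34 within 2%. The 20 rows of small nucleolar RNAs summed to 15 and 26.5 counts in the DMM knees of M04 and M05, against 25.5 and 35.5 counts in the sham knees, and 3 were at 0 in every library. None of them passed the filter on low counts, in libraries selected for poly(A) RNA.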

How the data were processed

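Poly(A) RNA was sequenced as single-end reads, per the labels' protocols, and the submitters' processing notes name the build GRCm39 (mm39). No aligner, counting method or strand setting is given in the sources used here, so reads of a gene and of one that overlaps it on either strand cannot be separated. The authors deposited estimated counts per gene, with every library in 2 equal columns, of which 1 was used, and an FPKM table, which the authors scaled for length and depth.

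The estimated counts were rounded. The test was edgeR 4.0.16 under R 4.3.3: filterByExpr (13103 of 24421 genes, all 81 members among them), TMM, and a robust quasi-likelihood fit with terms for the mouse and the surgery. P-values were adjusted by the Benjamini-Hochberg method over the 13103 genes, with a threshold of 0.05. The mouse is a block because, per the labels, both knees belong to the same animal, and libraries of 1 mouse deviated together from their group means (correlation 0.13). There was 1 residual degree of freedom. Ratios per mouse used log2 CPM (prior count 2) and no test. FPKM entered limma 3.58.1 as log2(FPKM + 0.1) or log2(FPKM + 1), and DESeq2 1.42.0 was another alternative.

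The members, the gene lists and the tests were chosen with earlier results of these data known. Named genes are those past the threshold, the 5 highest and 5 lowest in each comparison and by mean FPKM, the paralogs, the 4 members whose ratios differ most between the mice in each direction, those nearest to the count limit, the stalk genes, the Diamond-Blackfan genes and members sharing counts with another row. Rps7, shown for its promoter, and the list genes given as examples were named after their values were seen. Values of 1 member and of 1 listed gene, and the alternative that adds that listed gene to the members, are not reported here.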

Additional observations from a re-analysis of the deposited data

Results flagged for a closer look

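On the TMM scale, the median log2 ratio of DMM to sham had opposite signs in the animals for both subunits. For small subunit genes it was -0.17 in M05 and 0.0635 in M04. For large subunit genes it was -0.16 in M05 and 0.0732 in M04. With 1 library of each kind in an animal, the difference was not tested. These medians were not computed with library totals as the scale. As a share of library totals in M05, small subunit genes held 3.97% in the DMM knee against 4.02% in the sham knee. Large subunit genes held 5.08% against 5.09%, so the size of the M05 medians depends on the scale.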

How the results depend on the processing

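The count of members past the threshold for DMM against sham was 0 in the reported fit and 0 under every alternative except without the sham knee of M04, and leaving out 1 library gave 0 to 1. For all genes this count was 85, against 12 in DESeq2, 35 with relative log expression factors, 53 with library totals, 23 with haemoglobin rows left out, 0 with no replicate block (the surgery alone in the model), 1 in limma on FPKM with either pseudocount, and 0 to 109 when 1 library was left out. For M05 against M04 the count over all genes was 341 (126 higher and 215 lower), against 92 in DESeq2 (69 higher and 23 lower), 186 with relative log expression factors, 912 with library totals (21 higher and 891 lower), 111 with haemoglobin rows left out, 0 with the mouse alone in the model and 0 in limma on FPKM with either pseudocount, and 0 to 256 when 1 library was left out. Among the members it was 13, against 25, 4, 0, 0, 0 and 0 under these settings in the same order, and 0 to 36 when 1 library was left out. The fits with 1 library left out also dropped the other term, since 3 libraries leave the full model no residual degree of freedom, so they change 2 choices at once, and they assume that a lone library varies like the rest. The causes were not tested.

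When 1 library and the mouse term were left out, the median log2 fold change of DMM over sham was -0.32 to 0.23 for small subunit genes and -0.29 to 0.25 for large subunit genes, and relative to the median of all genes, a choice made after seeing the data, -0.32 to 0.22 and -0.29 to 0.23. In these fits the named genes changed sign within these ranges: Rps4x -0.00893 to 0.26, Rpl10 -0.0247 to 0.35, Rps4l -0.61 to 0.84, Rpl38 -0.0220 to 0.55, Rpl22l1 -0.90 to 0.50, Rps23 -0.63 to 0.24, Rpl41 -0.55 to 0.19, Rplp1 -0.51 to 0.17 and Rps24 -0.50 to 0.20. For M05 against M04, Rpl7l1 ran from -0.0106 to 0.0738 when 1 library and the surgery term were left out. Library totals moved the median of all genes to -0.25 for M05 over M04 and to 0.10 for DMM over sham. They gave medians of 0.20 for small and 0.16 for large subunit genes for M05 over M04, and negative values for Rpl7l1 (-0.21), Rpl4 (-0.10), Rpl29 (-0.0585), Rpl10 (-0.0425) and Rpl21 (-0.0342).

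The difference between the small and large subunit medians of the ratio of DMM to sham was -0.00602 in M05, and became -0.0135 with a higher limit on summed counts and -0.0281 on FPKM. In M04 it was -0.00966, and became -0.00630 without the paralogs, -0.0157 with Fau and Rpl36al added, a choice made after seeing the data, and -0.0158 on FPKM. Each of these is far below the spread of the members. Depth limits Rps4l and the small nucleolar RNAs most, and 2 animals limit every comparison.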
